A study of Mus musculus with 11 samples.

Results

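The nuclear genes of the oxidative phosphorylation subunits were described in macrophages sorted from mouse mammary tumours. Members were the genes whose symbol follows the naming of complex I (Nduf), complex II (Sdh), complex III (Uqcr and Cyc1), complex IV (Cox4 to Cox8) or complex V (Atp5). The rule took 83 of the 17475 genes in the table, with 36 in complex I, 4 in complex II, 9 in complex III, 17 in complex IV and 17 in complex V. It reads symbols and no measured value. Ndufa4 is counted with complex I by its symbol although its protein is now placed in complex IV. Cox7a2l, a factor that joins complexes III and IV, and Atp5s and Atp5sl, which are not subunits of the synthase, are also members by symbol. Subunits encoded on the mitochondrial genome were not analysed here.

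Messenger RNA was sequenced from 11 libraries of 6 female mice backcrossed to B6. The groups were tumour-associated macrophages (TAMs) of MYC-PyMT mice 2, 4 and 6, mammary tissue macrophages (MTMs) of MYC-PyMT mice 2 and 4, TAMs of control-PyMT mice 1, 3 and 5, and MTMs of the same control mice. Control mice carry the PyMT oncogene that gives mammary tumours. MYC mice, labelled S100a8-creRosa26-LSL-MYCPyMT, carry in addition S100a8-cre and a Rosa26-LSL-MYC allele, in which Cre driven by the S100a8 promoter, active in myeloid cells, removes a stop before MYC. At 7 weeks of age, mice of both genotypes were lethally irradiated, were given bone marrow of WT B6 donors, and then ate a low protein diet for 6 weeks that began 2 weeks later. No other diet was analysed here, and blood-derived cells of both genotypes can come from the WT marrow. TAMs were sorted as F4/80 and Vcam positive and MTMs as F4/80 positive, Vcam negative and FOLR2 positive.

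Oxidative phosphorylation turns the electrons of NADH and succinate into ATP in the inner mitochondrial membrane. Complex I takes electrons from NADH and complex II from succinate, complex III passes them to cytochrome c, complex IV hands them to oxygen, and complex V makes ATP from the proton gradient that complexes I, III and IV build. In macrophages, respiration is known to be kept up in cells of a tissue-repair state and to be lowered by inflammatory stimuli.

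Levels are the deposited log2 values, which behave as the log2 of a length-scaled read number plus 1. This scaling is inferred, so gaps in level between different genes also depend on the gene length it used. Libraries held an estimated 32.9 to 43.6 M reads in genes, with the lowest estimate in MYC TAM mouse 4. In that library 581 genes stood at a floor level without reads, shared with other libraries, against 2072 to 3522 in each other library. The 10 macrophage markers averaged 7.95 to 8.89 per library and none was without reads in a whole group. Of these, 2 were called higher (Cd68 and Lyz2) and 4 lower (Csf1r, Emr1, Fcgr1 and Ptprc) in MYC TAMs than in control TAMs. A difference was called where its adjusted p, from limma over all 17475 genes, was below 0.05. Replicates are separate mice, with TAMs and MTMs from 5 of the 6. In sorted bulk cells, fewer cells of a type and less RNA per cell cannot be told apart.

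Most subunit genes were well expressed. The members' mean levels over the 11 libraries had a median of 6.26, against 1.23 for all 17475 genes, and 58 of 83 members had a mean of 5 or more. Medians by complex were 6.04 for complex I, 7.09 for complex II, 6.64 for complex III, 5.50 for complex IV and 6.26 for complex V. The median of complex IV includes 6 tissue-restricted isoforms with means of 0.22 to 3.87, while 9 of its general forms averaged 5.23 to 9.81. The highest member was Cox6b1, which sits at the outer face of complex IV and joins its monomers. Its level was 10.36, 9.76 and 9.57 in MYC TAMs, 9.81 and 9.73 in MTMs of MYC mice, 9.71, 9.76 and 9.77 in control TAMs, and 9.61, 10.28 and 9.58 in control MTMs. Next came Uqcrc1, a core protein of complex III, with a mean of 9.35, Ndufa4 with 8.90, and Ndufa1, a small accessory subunit of complex I, with 8.84. In complex II the flavoprotein Sdha, where succinate is oxidised, averaged 7.32 and the membrane anchor Sdhc 4.85. In complex V the F1 subunits Atp5a1 and Atp5b, which form the catalytic ring, averaged 7.96 and 7.86.

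Members of one complex were far apart in level although their proteins sit in it in fixed numbers. Complex I spanned 1.63 for Ndufs7, an iron-sulfur core subunit, to 8.90 for Ndufa4. Complex III spanned 1.97 for Uqcrq to 9.35 for Uqcrc1. Cox4i1, the common form of the large nuclear subunit of complex IV, was listed at 2.09, 2.10 and 2.13 in MYC TAMs, 2.11 and 1.92 in MTMs of MYC mice, 1.97, 1.88 and 1.90 in control TAMs, and 1.94, 1.88 and 1.98 in control MTMs. It was thus low in each library, with a mean of 1.99, against 8.52 for its neighbour subunit Cox5a. The gene model of Cox4i1 shares 154 exon bases with Emc8 on the other strand, and how the counting used strand is not given in the sources used here. Exons of 24 members overlap a gene on the other strand and those of 4 members one on the same strand.

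Start regions of some members show the motifs known from respiratory genes. RefSeq promoters (250 bases before to 50 after the start, build GRCm38.p6) were found for 68 of the 83 members. The NRF1 motif, read here as GCGC, any 2 bases and GCGC on either strand, was in 17 of these (25%) and in 6.43% of all 27025 promoters of that length. With both strands searched, the ETS motif CCGGAAG, the kind GABP binds, was in 22.1% of members and 9.12% of all, the YY1 motif AAGATGGCG in 10.3% and 1.49%, and the E-box CACGTG that MYC can bind in 10.3% and 7.24%. By complex, the NRF1 motif was in 8 of 32 promoters of complex I, 2 of 3 of complex II, 1 of 5 of complex III, 1 of 12 of complex IV and 5 of 16 of complex V. The E-box was in 2 of 32 promoters of complex I, 5 of 16 of complex V and no promoter of the other complexes. A match is a description of these letters and not a site.

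The 5 promoters below are those of Ndufa9 and Cox5a, which passed the test between genotypes, of Uqcrc1, a high member with the NRF1 motif, and of the Cox8a and Cox8b pair of isoforms. Capitals mark YY1 in Ndufa9, at chr6:126849095-126849394 on the minus strand, and NRF1 in Uqcrc1, at chr9:108936398-108936697 on the plus strand. They mark ETS, on the reverse strand of the motif, in Cox8a at chr19:7217567-7217866 on the minus strand. Cox5a, at chr9:57520982-57521281 on the plus strand, and Cox8b, at chr7:140900397-140900696 on the minus strand, held none of the 4 motifs.
Ndufa9: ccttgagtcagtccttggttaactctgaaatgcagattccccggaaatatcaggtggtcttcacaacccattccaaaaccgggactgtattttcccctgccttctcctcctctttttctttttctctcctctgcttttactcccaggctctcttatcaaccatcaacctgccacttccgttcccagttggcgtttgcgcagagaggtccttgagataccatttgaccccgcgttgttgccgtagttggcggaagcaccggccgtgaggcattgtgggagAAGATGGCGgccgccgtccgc
Cox5a: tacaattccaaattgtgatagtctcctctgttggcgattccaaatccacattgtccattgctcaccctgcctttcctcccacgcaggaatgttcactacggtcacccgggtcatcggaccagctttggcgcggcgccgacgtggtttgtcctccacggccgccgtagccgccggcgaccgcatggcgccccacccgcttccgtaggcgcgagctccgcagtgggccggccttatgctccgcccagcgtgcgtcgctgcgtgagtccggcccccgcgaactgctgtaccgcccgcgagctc
Uqcrc1: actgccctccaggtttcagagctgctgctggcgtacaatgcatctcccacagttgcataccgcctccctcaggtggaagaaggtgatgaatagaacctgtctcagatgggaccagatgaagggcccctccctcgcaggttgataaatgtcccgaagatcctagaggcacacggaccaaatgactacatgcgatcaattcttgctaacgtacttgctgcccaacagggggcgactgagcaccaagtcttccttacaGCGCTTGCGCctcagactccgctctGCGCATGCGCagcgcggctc
Cox8a: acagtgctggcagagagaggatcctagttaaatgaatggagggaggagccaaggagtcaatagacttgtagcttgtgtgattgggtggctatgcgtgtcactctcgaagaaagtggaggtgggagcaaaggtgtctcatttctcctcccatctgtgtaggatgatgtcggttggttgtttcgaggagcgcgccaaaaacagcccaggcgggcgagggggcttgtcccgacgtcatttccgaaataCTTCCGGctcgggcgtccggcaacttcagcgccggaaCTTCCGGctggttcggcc
Cox8b: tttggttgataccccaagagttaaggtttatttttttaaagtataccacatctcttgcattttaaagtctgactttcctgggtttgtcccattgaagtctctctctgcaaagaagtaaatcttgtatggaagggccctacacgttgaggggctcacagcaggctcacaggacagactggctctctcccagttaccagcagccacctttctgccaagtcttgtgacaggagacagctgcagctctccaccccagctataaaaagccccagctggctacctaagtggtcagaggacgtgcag

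The first comparison asked how TAMs of MYC mice differed from TAMs of control mice. Of the 83 members, 2 were called, both lower in MYC TAMs: Ndufa9 of complex I and Cox5a of complex IV. That is 2.41% of the members, while 15.9% of all genes were called and 12% were called lower. Among the 1729 genes with a mean level of 5 or more, 28.8% were called. The median difference over the members was -0.02, over all genes also -0.02, and over the genes with a mean of 5 or more -0.12.

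Ndufa9, an accessory subunit at the hinge of complex I that holds a bound NADPH, had levels of 7.78, 7.74 and 7.75 in MYC TAMs and 8.31, 8.41 and 8.46 in control TAMs. The groups did not overlap. The difference was -0.64 ± 0.16 (SE; 95% interval -0.9997 to -0.27), a 1.56-fold lower level, with a limma adjusted p of 0.0254. In MTMs Ndufa9 had 8.03 and 8.20 in MYC mice and 8.18, 8.67 and 8.13 in control mice, which overlap. Cox5a, a nuclear subunit on the matrix side of complex IV, had 8.20, 7.42 and 8.21 in MYC TAMs and 8.64, 8.71 and 8.82 in control TAMs, again without overlap. Its difference was -0.78 ± 0.22 (SE; 95% interval -1.28 to -0.28), 1.72-fold lower, with a limma adjusted p of 0.0424. In MTMs Cox5a had 8.74 and 8.66 in MYC mice and 8.62, 9.03 and 8.64 in control mice. Exons of Ndufa9 overlap 1700018A23Rik by 67 bases and those of Cox5a overlap Gm26631 by 269 bases, each on the other strand.

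Both calls depend on single libraries. The count of 2 was 0 without MYC TAM mouse 4, control TAM mouse 3 or control TAM mouse 5, 1 (Ndufa9) without MYC MTM mouse 2, MYC MTM mouse 4, control TAM mouse 1 or control MTM mouse 5, 5 without control MTM mouse 3, 4 if MYC TAM mouse 2 was left out, and 6 if MYC TAM mouse 6 was, of which 3 were higher in MYC TAMs. Without control MTM mouse 1 the count stayed 2, but Cox5a was lost (adjusted p = 0.0585) and Cox8b was called lower (adjusted p = 0.0492). Centring each library on its median moved the median difference of all genes to 0.19. It left Ndufa9 at -0.43 (adjusted p = 0.139) and Cox5a at -0.57 (adjusted p = 0.157), and called Cox7a2l and Cox8c higher instead. That fit called 28.8% of all genes. Of all genes, the leave-one-out fits with 5, 4 and 6 members called had 16.1%, 12% and 17.1% called, in that order. For the leave-one-out fits with 0 members the share of all genes was 9.92% to 13.6%.

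**Figure D1:**
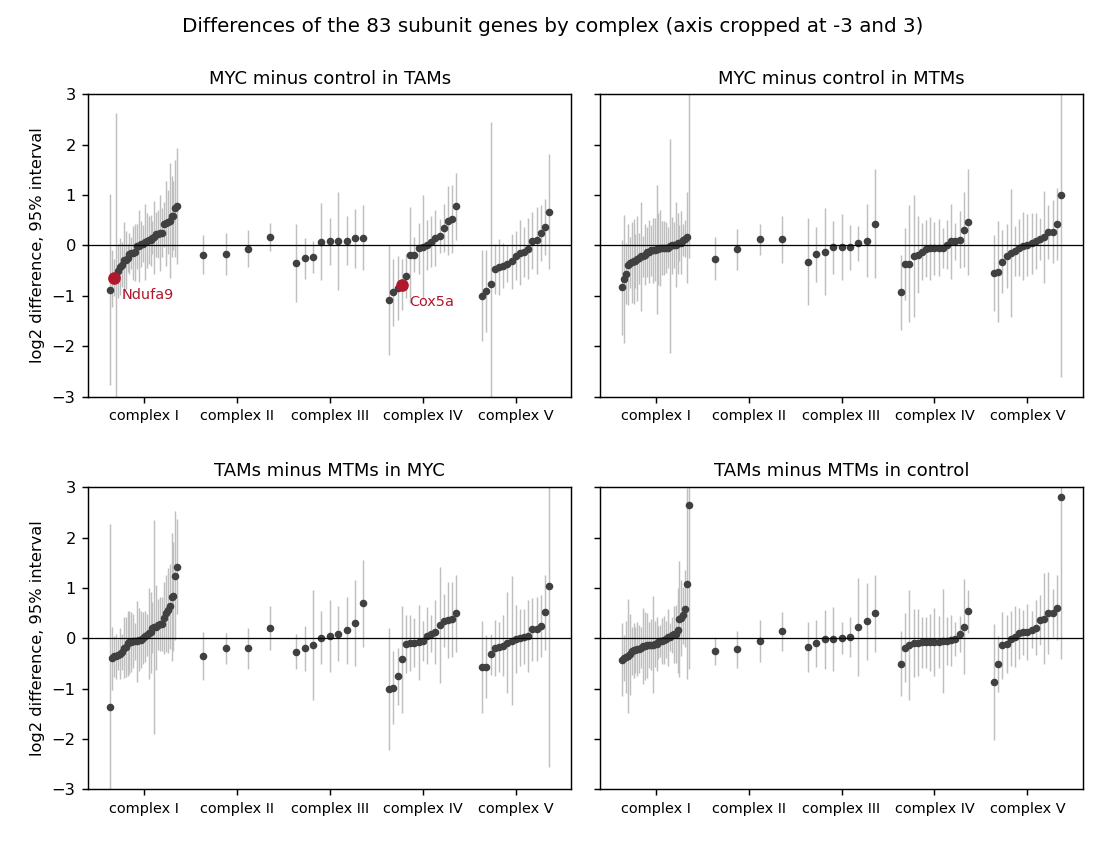
Log2 difference of each of the 83 members (points) with its 95% interval (lines), by complex, in 4 comparisons named above each panel. The y axis is cropped at -3 and 3 and members are sorted by size within a complex. Red points passed the adjusted p of 0.05: Ndufa9 (-0.64) and Cox5a (-0.78) in MYC minus control TAMs, and no member elsewhere.

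By complex, the MYC minus control difference in TAMs had a median of 0.05 in complex I, -0.12 in complex II, 0.08 in complex III, -0.03 in complex IV and -0.20 in complex V. After centring on library medians these were 0.26, 0.09, 0.29, 0.18 and 0.00, so the signs in complexes II, IV and V depend on the scaling. The signs also depend on single libraries. With MYC TAM mouse 2 left out, the medians were -0.13 in complex I, -0.08 in complex II, -0.32 in complex III, -0.20 in complex IV and -0.43 in complex V. With MYC TAM mouse 6 left out, they were 0.23, -0.02, 0.22, 0.14 and 0.02 for complexes I to V. Complex III was also at -0.01 without control TAM mouse 1 or control TAM mouse 3, and complex IV at 0.03 without MYC TAM mouse 4. The 7 nuclear core subunits of complex I ranged from -0.88 for Ndufs7 to 0.44 for Ndufs3, and none was called. The 28 accessory subunits, without Ndufa4, ranged from -0.66 for Ndufc2 to 0.77 for Ndufs5, with Ndufa9 the 1 call. In complex II all 4 differences were small, from -0.19 for the iron-sulfur subunit Sdhb to 0.17 for the anchor Sdhd, and each interval lay within a 2-fold change either way. In complex III the range was -0.35 for the core protein Uqcrc2 to 0.16 for Uqcrq.

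Complex V had 12 of its 17 members at a negative difference in TAMs and none was called. All 5 F1 subunits were on that side, though only 3 after centring on library medians, from -0.13 for the gamma subunit Atp5c1 to -0.995 for the epsilon subunit Atp5e. Atp5e had 6.95, 6.10 and 6.01 in MYC TAMs and 7.64, 7.82 and 6.58 in control TAMs, which overlap, with an adjusted p of 0.136. Atp5f1, the b subunit of the stalk, had 7.29, 6.51 and 6.43 in MYC TAMs and 7.41, 7.88 and 7.64 in control TAMs, without overlap, and its difference of -0.90 ± 0.36 (SE) did not pass (adjusted p = 0.137). The 3 genes for the c subunit of the rotor, Atp5g1, Atp5g2 and Atp5g3, differed by -0.31, -0.14 and -0.42, none called, with 2 of the 3 negative after centring on library medians. The 5 positive differences were those of the subunits Atp5j (0.67), Atp5l (0.25) and Atp5h (0.09), and of the by-symbol members Atp5s (0.37) and Atp5sl (0.10). Across all members, MYC and control TAM libraries did not overlap for 10, or 12.0%, against 30.1% of all genes.

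The precision of these data bounds what can be said of uncalled members. In TAMs 54 of 83 members (65.1%) had a 95% interval for MYC minus control that lay within a 2-fold change either way. The share was 65.9% of all genes and 52.1% of genes with a mean of 5 or more. At an unadjusted p under 0.05 limma gave 9 members (10.8%), against 28% of all genes. They were Ndufa9, Ndufc2, Cox5a, Cox4i2, Cox7a1, Cox8b, Atp5e and Atp5f1, with negative differences, and Cox7a2l, with a positive one.

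The tissue-restricted isoforms of complex IV stood at the low end of the members, and 5 of 6 had a negative MYC minus control difference in TAMs (median -0.73; 4 of 6 after centring on library medians). Complex IV has subunits with a general form and a form known from muscle, lung or testis. General forms (Cox5a, Cox5b, Cox6a1, Cox6b1, Cox6c, Cox7a2, Cox7b, Cox7c and Cox8a) averaged 5.23 to 9.81. The restricted forms (Cox4i2, Cox6a2, Cox6b2, Cox7a1, Cox8b and Cox8c) averaged 0.22 to 3.87. Cox4i1, the general partner of Cox4i2, is not in the list of general forms. Its mean of 1.99 lay below that of the restricted Cox7a1 (3.87), so with Cox4i1 the 2 ranges overlap. None of the 6 restricted forms was called by limma in any comparison with all 11 libraries and the deposited scaling.

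Cox7a1, the heart and muscle form of subunit 7a, had 3.08, 3.22 and 3.00 in MYC TAMs, 4.25 and 3.91 in MTMs of MYC mice, 3.74, 4.56 and 3.52 in control TAMs, and 4.27, 4.91 and 4.15 in control MTMs. The 3 MYC TAM libraries were the lowest of all 11. The difference from control TAMs was -0.84 ± 0.29 (SE; adjusted p = 0.08) and from MYC MTMs -0.98 ± 0.32 (SE; adjusted p = 0.141). Its general partner Cox7a2 had 8.77, 8.16 and 7.63 in MYC TAMs and 7.62, 7.76 and 7.59 in control TAMs, with a difference of 0.53 ± 0.30 (SE; adjusted p = 0.299). Cox7a2l had 6.87, 6.39 and 5.44 in MYC TAMs, 5.96 and 5.75 in MTMs of MYC mice, 5.53, 5.34 and 5.49 in control TAMs, and 5.44, 5.66 and 5.50 in control MTMs. The MYC TAM libraries of mice 2 and 4 were above the other 9, and mouse 6 lay within the control range. Its difference was 0.78 ± 0.30 (SE) with an adjusted p of 0.114, and without MYC TAM mouse 6 it was 1.18 with an adjusted p of 0.0024.

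Cox8b, the heart and muscle form of subunit 8, was close to the detection floor, with an estimated 0, 4 and 0 reads in MYC TAMs, 0 and 5 in MTMs of MYC mice, 21, 12 and 9 in control TAMs, and 7, 29 and 13 in control MTMs. MYC libraries of either cell type were thus below each control library, by a few reads. Its differences, -0.93 ± 0.30 in TAMs (adjusted p = 0.0637) and -0.93 ± 0.33 in MTMs (adjusted p = 0.345), were not called and understate a change in so low a gene. Cox8a, its general form, had 8.04, 7.23 and 7.2 in MYC TAMs and 7.24, 7.52 and 7.48 in control TAMs. Cox4i2, known from lung and induced by low oxygen, had 0.36, 0.50 and 0.72 in MYC TAMs and 1.19, 1.00 and 1.20 in control TAMs, a difference of -0.61 ± 0.19 (SE; adjusted p = 0.0627). Cox6a2, the muscle form of subunit 6a, had 0.13, 0.45 and 1.86 in MYC TAMs and 2.26, 1.32 and 2.11 in control TAMs. That difference was -1.08 ± 0.48 (SE; adjusted p = 0.182), and MYC TAM mouse 6 lay inside the control range. These levels also rest on few reads. Over the 11 libraries Cox4i2 had an estimated 5.01 to 29 reads, Cox6a2 1.06 to 93 and Cox6b2 14.9 to 38.9. Cox8c, known from testis, had 12 estimated reads in MYC TAM mouse 4 and at most 2 in each of the other 10 libraries. MYC TAM mouse 4 is also the library with the fewest genes without reads (581 at the shared floor), and the reason was not tested.

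Of the 12 muscle markers none was called in any comparison. After centring on library medians, 28.8% of all genes were called in either direction between MYC and control TAMs. Of the 12 markers, 3 were then called higher in MYC TAMs than in control TAMs. Their mean level was 0.31 to 0.97 in MYC TAMs, 0.43 to 0.47 in MYC MTMs, 0.57 to 0.90 in control TAMs and 0.47 to 0.79 in control MTMs, and Myh1, Myh2 and Myh4 had no reads in MYC MTMs. Their summed linear level was 4.12 to 16.9, 5.55 to 6.43, 7.91 to 15.5 and 5.95 to 12.1 in the same order of groups. The highest mean level in MYC TAMs, 0.97, was that of mouse 4. Of 8 fibroblast and 5 adipocyte markers none was called, and of 4 endothelial markers 1, Pecam1, was lower in MYC TAMs. The part of muscle RNA in the restricted isoforms was not tested.

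**Figure D2:**
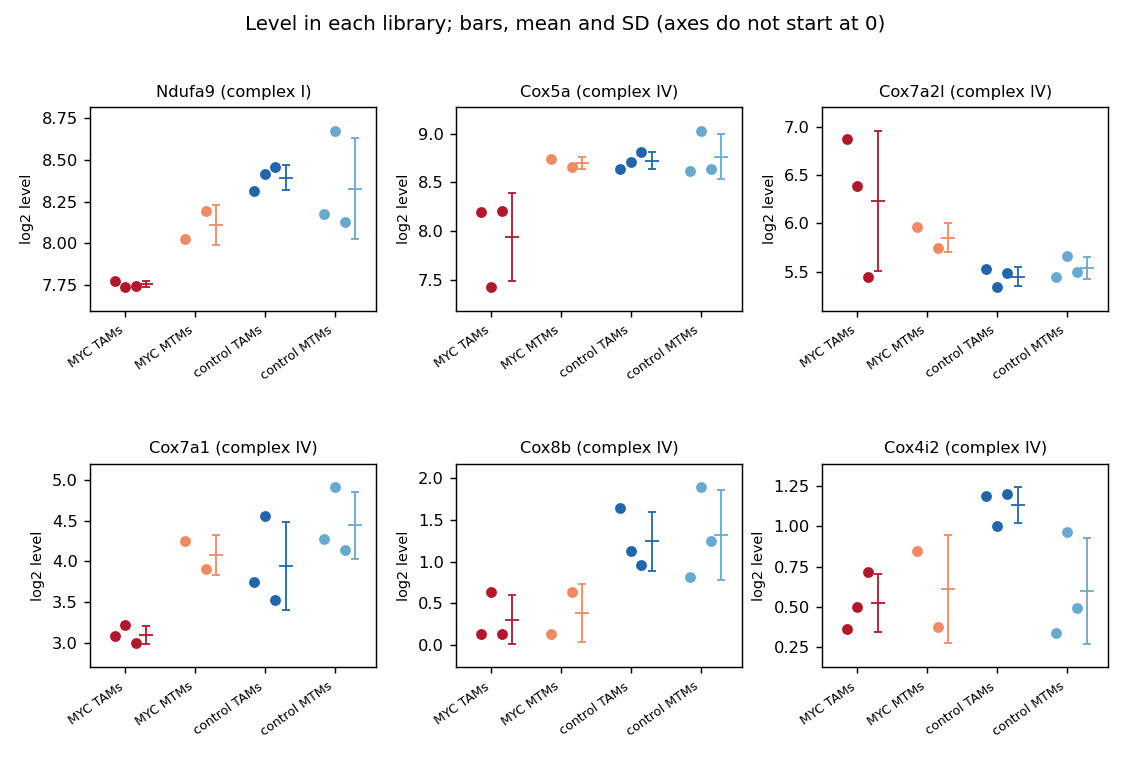
Log2 level (y axis, not starting at 0) of 6 members in each library, with groups along the x axis in the order MYC TAMs, MYC MTMs, control TAMs, control MTMs. Points are libraries, in the order of mouse number, and bars are the mean and SD. Ndufa9 in MYC TAMs lies at 7.74 to 7.78, under all control TAMs at 8.31 to 8.46, while Cox7a2l in MYC TAMs spreads over 5.44 to 6.87.

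Markers of other cell types differed with genotype in TAMs. The summed linear level of 14 epithelial markers was 74.5 to 650 in MYC TAMs, 567 to 645 in MYC MTMs, 1400 to 2970 in control TAMs and 1060 to 2240 in control MTMs, with 8 of 14 called lower in MYC TAMs than in control TAMs. The 10 T and NK cell markers summed to 2.68 to 7.12 in MYC TAMs, 1.84 to 12.7 in MYC MTMs, 65.9 to 153 in control TAMs and 17.0 to 46.2 in control MTMs. Of these, 9 of 10 were called lower in MYC TAMs than in control TAMs, and Cd3e, Gzma and Prf1 had no reads in MYC TAMs. All 12 proliferation genes were called lower in MYC TAMs too, with summed levels of 41.0 to 51.4 in MYC TAMs and 167 to 290 in control TAMs. The part of these in the differences of Ndufa9 and Cox5a was not tested.

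Between MYC and control MTMs, no member was called by limma (0.618% of all genes were), and at an unadjusted p under 0.05 there was 1 (1.2%), Cox8b, against 10.1% of all genes. Medians were -0.08 in complex I, 0.02 in complex II, -0.03 in complex III, -0.05 in complex IV and 0.00 in complex V. Intervals of 57 of 83 members (68.7%) lay within a 2-fold change, against 73.6% of all genes. The ends of the range were -0.83 (Ndufs3) and 3.39 (Ndufa5) in complex I, -0.26 (Sdhb) and 0.12 (Sdhc) in complex II, -0.32 (Uqcrc2) and 0.43 (Uqcrb) in complex III, -0.37 (Cox7a1) and 0.46 (Cox7b) in complex IV, and -0.55 (Atp5sl) and 1.002 (Atp5k) in complex V, among members with a mean of 1 or more. Only 2 MYC MTM libraries were there for this comparison. Libraries did not overlap for 11 members (13.3%), against 31.2% of all genes.

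The second question was how TAMs differed from MTMs within each genotype, without pairing by mouse. In MYC mice, TAMs of mice 2, 4 and 6 were set against MTMs of mice 2 and 4. In MYC mice no member was called by limma (4.49% of all genes were), and 4 members (4.82%) had an unadjusted p under 0.05, against 16.8% of all genes. These were Ndufs3, a core subunit of the quinone-binding module, at 1.42 ± 0.42 (SE; adjusted p = 0.0998), Cox7a1, Cox5a at -0.76 ± 0.25 (SE; adjusted p = 0.145) and the accessory subunit Ndufa10 at -0.33 ± 0.14 (SE; adjusted p = 0.256). Ndufs3 had 6.01, 5.17 and 4.98 in MYC TAMs, against 4.52 and 3.40 in MTMs of these mice, which do not overlap, and 4.43, 5.45 and 4.96 in control TAMs and 4.79 ± 0.23 (SD, n = 3) in control MTMs. Exons of Ndufs3 share 88 bases with Kbtbd4 on the other strand. Without MYC TAM mouse 6, 1 member was called by limma, Cox7a2l, higher in MYC TAMs (0.78, adjusted p = 0.0453), while 5.9% of all genes were called. Medians by complex were 0.02 in complex I, -0.20 in complex II, 0.05 in complex III, -0.05 in complex IV and -0.02 in complex V. At the ends of the range stood Ndufa5 (-1.36) and Ndufs3 in complex I, Sdhc (-0.35) and Sdhb (0.21) in complex II, Cyc1, cytochrome c1, (-0.27) and Uqcrh (0.69) in complex III, Cox6a2 (-1.01) and Cox7c (0.49) in complex IV, and Atp5f1 (-0.57) and Atp5k (1.04) in complex V.

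In control mice no member was called by limma between TAMs and MTMs (2.37% of all genes were). At an unadjusted p under 0.05 there were 2 (2.41%), against 11.8% of all genes, both with a positive difference: Atp5b, the catalytic beta subunit, at 0.50 ± 0.22 (SE; adjusted p = 0.398) and Cox4i2 at 0.53 ± 0.19 (SE; adjusted p = 0.258). Atp5b had 8.17, 8.08 and 8.05 in control TAMs and 7.41, 8.03 and 7.35 in control MTMs. The control TAMs sat just above the highest MTM library. Medians were -0.11 in complex I, -0.14 in complex II, 0.01 in complex III, -0.07 in complex IV and 0.13 in complex V. Members ranged from -0.42 (Ndufb6) to 2.64 (Ndufa5) in complex I, from -0.25 (Sdhd) to 0.14 (Sdhb) in complex II, from -0.18 (Uqcr11) to 0.49 (Uqcrh) in complex III, from -0.50 (Cox7a1) to 0.23 (Cox7b) in complex IV, and from -0.87 (Atp5j) to 2.81 (Atp5k) in complex V, all with a mean of 1 or more. Intervals of 59 of 83 members (71.1%) lay within a 2-fold change, so a change of 2-fold or more is outside the interval for these. The share was 78.4% of all genes and 71.3% of genes with a mean of 5 or more. Libraries did not overlap for 10 members (12.0%) in control mice and 11 (13.3%) in MYC mice, against 18.9% and 30.4% of all genes.

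Whether the TAM to MTM difference itself depended on genotype was tested as a difference of differences. No member was called by limma (1.24% of all genes were), and Ndufs3, at 1.27 ± 0.56 (SE; adjusted p = 0.453), had the 1 unadjusted p under 0.05 (1.2% of members, against 10.9% of all genes). The ends of the range were Ndufa5 (-4.00) in complex I, Sdhc (-0.30) and Sdhb (0.07) in complex II, Uqcrb (-0.35) and Uqcr11 (0.27) in complex III, Cox6a2 (-0.87) and Cox7c (0.68) in complex IV, and Atp5k (-1.77) and Atp5j (0.82) in complex V. Of the 5 comparisons this test is the least precise, with 30 of 83 intervals (36.1%) within a 2-fold change. The difference of -0.72 ± 0.34 (SE) for Cox5a and of -0.42 ± 0.24 (SE) for Ndufa9 did not pass, so the genotype difference in TAMs is not shown to be absent from MTMs. The comparisons share libraries and are not independent of each other.

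Subunit genes of most complexes also differed together between libraries of one group. MYC TAM mouse 2 was the highest library of all 11 for 35 of 83 members, with a median deviation from the members' own means of 0.37. MYC TAM mouse 6 was the lowest for 34 members, with a median deviation of -0.30. Control MTM mouse 3 was the highest for 22 members, at 0.29. Of the 1729 genes with a mean of 5 or more, MYC TAM mouse 2 was the highest for 333 and MYC TAM mouse 6 the lowest for 417. Control MTM mouse 3 was the highest for 404 of them. The median deviations over those genes were -0.02, -0.24 and 0.22 in these 3 libraries, so mouse 6 and control MTM mouse 3 were also shifted there. Between MYC TAM mice 2 and 6, 73 of 83 members (88.0%) were higher in mouse 2, by a median of 0.70, while 59.5% of genes with a mean of 5 or more were higher there, by a median of 0.16. Between control MTM mice 3 and 5, 66 of 83 members (79.5%) were higher in mouse 3, by a median of 0.40, against 64.0% and 0.16 in genes of that level. Control TAMs were closer to each other, with medians of -0.06 to 0.05 between their libraries.

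The deviation was not the same in each complex. In MYC TAM mouse 2 the median deviation was 0.38 for complex I, 0.03 for complex II, 0.50 for complex III, -0.0048 for complex IV and 0.38 for complex V. The value of complex IV pools its general and restricted forms. In that library the restricted forms were all below their own means. Of the general forms listed above, Cox5a, Cox6a1 and Cox7b were below theirs and the others above. In MYC TAM mouse 6 it was -0.30, -0.20, -0.27, -0.24 and -0.40 for complexes I to V. In control MTM mouse 3 it was 0.29, 0.10, 0.32, 0.32 and 0.33. Whether complexes differ in this deviation was not tested.

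The 79 cytosolic ribosomal protein genes moved with the members in part. Their median deviation was 1.3 in MYC TAM mouse 2, where 63 of 79 were at their highest, 0.28 in MYC TAM mouse 4, -0.39 in MYC TAM mouse 6, and -0.67, 0.22 and -0.71 in control MTM mice 1, 3 and 5. The members were at -0.09 in MYC TAM mouse 4, and at -0.10 and -0.07 in control MTM mice 1 and 5. In control MTM mouse 3 the genes with a mean of 5 or more were also at 0.22. The mean level of the 14 epithelial markers also differed between these libraries, at 4.19, 3.17 and 2.02 in MYC TAM mice 2, 4 and 6, and 4.61, 5.29 and 4.74 in control MTM mice 1, 3 and 5. RNA integrity numbers are given for the series as a range of 3.3 to 9.6 and not by library. The median SD within MYC TAMs was 0.43 for the members and 0.32 for genes with a mean of 5 or more, and within control TAMs 0.15 and 0.17. The part of ribosomal protein RNA, epithelial RNA, RNA quality or library size in this pattern was not tested.

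**Figure D3:**
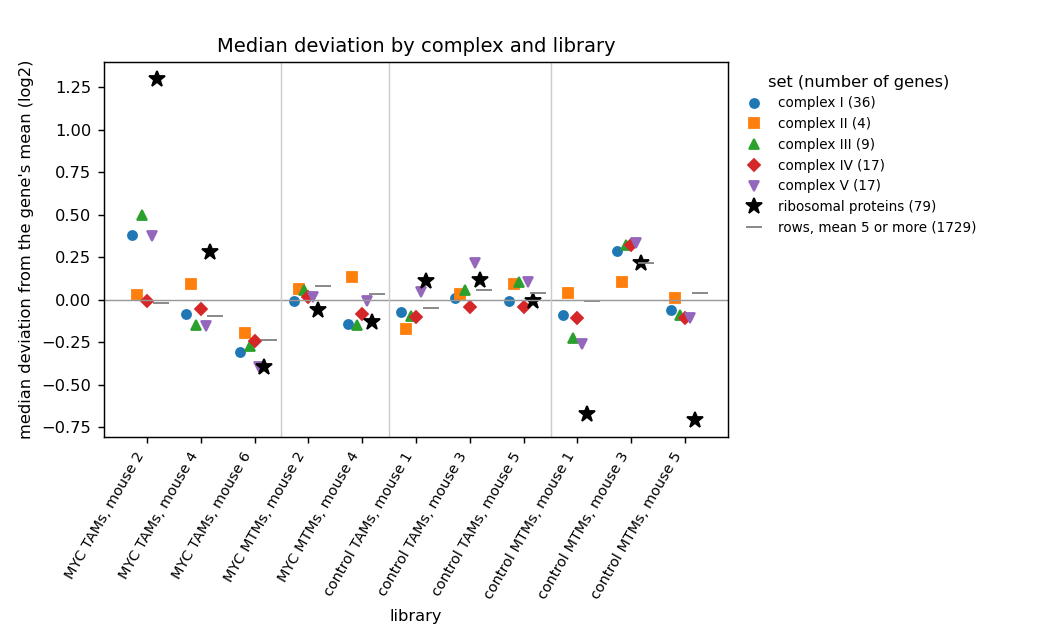
Median deviation (log2, y axis) of the genes of each complex from their own mean over 11 libraries, for each library (x axis, by group and mouse), with the 79 cytosolic ribosomal protein genes (stars) and the 1729 genes with a mean of 5 or more (dashes). MYC TAM mouse 2 is high in complexes I, III and V (0.38, 0.50 and 0.38) and in ribosomal protein genes (1.3), and MYC TAM mouse 6 is low. Complex IV pools general forms, most of them high in MYC TAM mouse 2, with restricted forms that are low there.

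**Figure D4:**
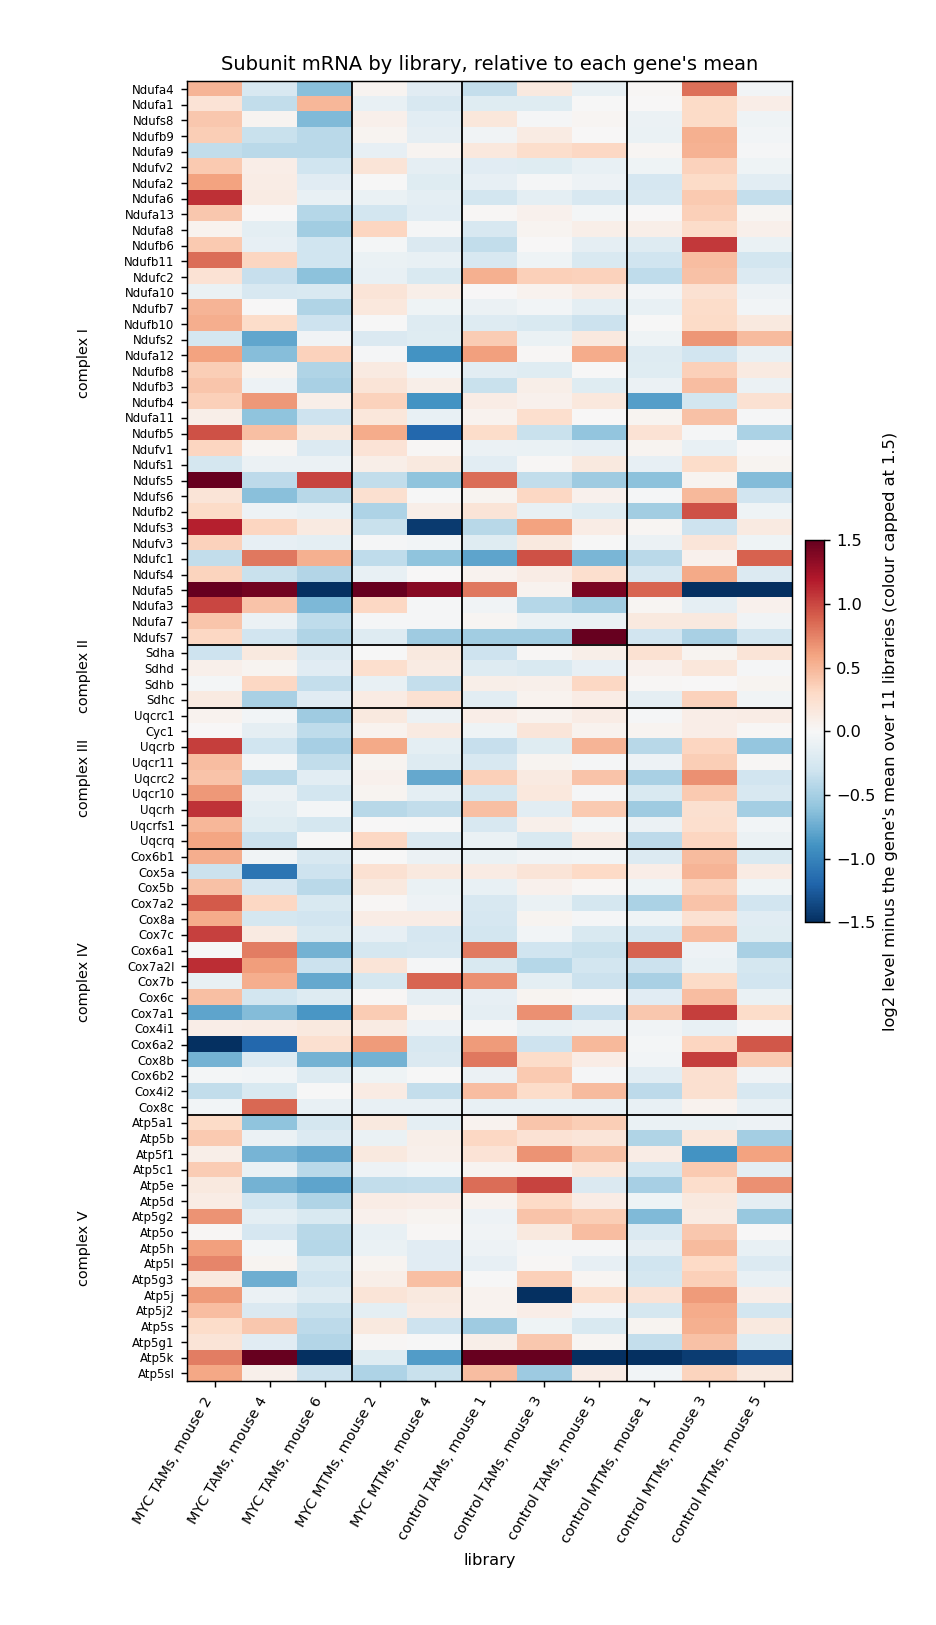
Level of each of the 83 members (y axis, by complex and in order of level) in each library (x axis), as the log2 deviation from the gene's own mean, in colour (red higher, blue lower, capped at 1.5). The column of MYC TAM mouse 2 is mostly red and that of MYC TAM mouse 6 mostly blue, and a few genes, such as Ndufa5 and Atp5k, switch between libraries of a group.

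When mice 4 and 6 were left out of the MYC TAMs together, only mouse 2 stood for the group, and limma, which then takes the spread from the other groups, called 6 members, all higher: Ndufa3, Ndufa6, Ndufb10 and Ndufv1 of complex I, and Cox7c and Cox7a2l of complex IV. That fit called 13.5% of all genes. None of the 6 is among the 2 called with all 11 libraries. Without mouse 2, 4 of 83 members and 12% of all genes were called, the members all lower in MYC TAMs: Ndufc2, Cox5a, Atp5a1 and Atp5d.

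For 5 members, libraries of one group differed by more than 2 on the log2 scale, a 4-fold change. That is 6.33% of the 79 members with a mean of 1 or more, against 6.79% of all such genes. Ndufa5, an accessory subunit of the matrix arm of complex I, had 6.53, 5.76 and 1.09 in MYC TAMs, 5.95 and 5.68 in MTMs of MYC mice, 5.11, 4.37 and 5.73 in control TAMs, and 5.19, 0.89 and 1.20 in control MTMs. It was thus low in 3 libraries and between 4.37 and 6.53 in the other 8. Atp5k, subunit e of the membrane part of complex V, had 3.51, 5.45 and 0.87 in MYC TAMs, 2.56 and 1.90 in MTMs of MYC mice, 6.23, 5.32 and 0.58 in control TAMs, and 0.96, 1.31 and 1.41 in control MTMs. High and low libraries of Atp5k occurred within TAMs of both genotypes.

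Ndufs7 had 4.89 in control TAM mouse 5 and 1.09 to 1.95 in the other 10 libraries. Atp5j, coupling factor 6 of the stalk, had 2.57 in control TAM mouse 3 and 4.33 to 5.17 elsewhere. Ndufs5, an accessory subunit of complex I, had 6.94, 4.90 and 6.31 in MYC TAMs and 6.13, 4.93 and 4.76 in control TAMs. The 95% intervals of these genes are correspondingly wide, for Ndufa5 from -3.86 to 2.64 for MYC minus control in TAMs, and no call was made for any of the 5 in any comparison.

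**Figure D5:**
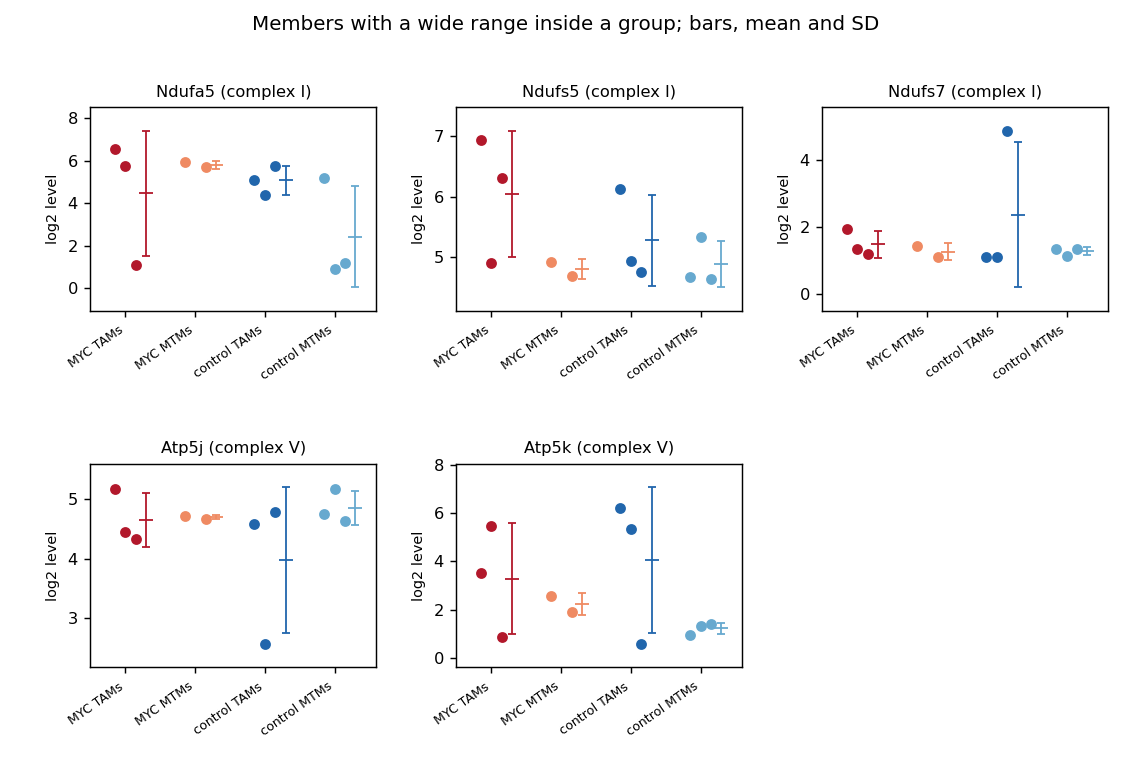
Log2 level (y axis) of the 5 members whose libraries spread over more than 2 within a group, with groups along the x axis as MYC TAMs, MYC MTMs, control TAMs, control MTMs. Points are libraries in the order of mouse number and bars are the mean and SD. Single libraries stand away from the rest of their group, such as control TAM mouse 5 for Ndufs7 at 4.89.

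Genes that work beside the subunits were counted from lists by function. Of 14 enzymes of the TCA cycle, which feeds NADH to complex I and succinate to complex II, 7 were called lower and 0 higher in MYC TAMs than in control TAMs, with a median difference of -0.48. Over all genes, 12% were called lower in that comparison, and 28.8% of genes with a mean level of 5 or more were called in either direction. Citrate synthase Cs, which opens the cycle, had 5.84, 6.05 and 6.26 in MYC TAMs and 6.65, 6.82 and 6.78 in control TAMs, a difference of -0.70 ± 0.14 (SE; limma adjusted p = 0.00768). Idh3g, a subunit of the NAD-linked isocitrate dehydrogenase, differed by -0.68 (adjusted p = 0.0123) and the mitochondrial NADP-linked Idh2 by -0.80 (adjusted p = 0.0167). Suclg2, a subunit of succinyl-CoA ligase, differed by -0.88 (adjusted p = 0.0175). Idh3a, Dlst and Fh1 were the other 3 called. Against MYC MTMs, citrate synthase was also lower in MYC TAMs (-0.77 ± 0.15, SE; adjusted p = 0.0216), the 1 call of the list in that comparison. The count of 7 was 5 after quantile normalisation, 0 after centring on library medians (median difference -0.27), 4 without MYC TAM mouse 2, 3 if MYC TAM mouse 4 was left out, 3 if control TAM mouse 5 was, and 2 if control TAM mouse 3 was. Whether the TCA enzymes and the subunits differ from each other was not tested.

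Among assembly factors, 2 of 15 for complex I were called lower in MYC TAMs than in control TAMs, a share near the 12% of all genes called lower. They were Acad9 at -1.12 ± 0.22 (SE; adjusted p = 0.00762) and Ecsit at -0.65 ± 0.15 (SE; adjusted p = 0.0177), both parts of the complex that builds the membrane arm. For complex IV it was 1 of 22, a smaller share than over all genes, Higd1a at -0.74 (adjusted p = 0.0174). None of 3 factors for complex II, 6 for complex III and 4 for complex V was called. The medians of the complex I and IV factors, -0.09 and -0.07, were 0.12 and 0.14 after centring on library medians, when 1 factor each of complexes I, II, III and IV was called higher and 1 of complex I lower. That centred fit called 28.8% of all genes in either direction. Of 11 electron and nucleotide carriers, 1 was called lower, the uncoupling protein homologue Ucp2 at -0.75 (adjusted p = 0.0490). Of 11 genes of coenzyme Q synthesis and function, 1 was called higher, Coq10a at 0.78 (adjusted p = 0.0389), and of 17 regulators of mitochondrial biogenesis none was called, with a median of -0.31. In MTMs between genotypes, between TAMs and MTMs of control mice, and in the difference of differences, no gene of these 9 lists was called.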

How the data were processed

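The values are log2 levels per gene and library, as deposited, and the submitters' processing notes name HISAT2, DESeq2 and the builds mm10 and GRCm38.p5, with no role given. Tested on the low values, the deposited log2 levels follow log2(x + 1), with x a whole read number (plus 1) times a factor of gene and library, and 9475 of 9475 low values came out whole (tolerance 0.05). This formula is inferred, x scales with gene length, and estimated reads come from it. RNA was 500 ng with 8 PCR cycles, per the labels.

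Differences were fitted with limma 3.58.1 in R 4.3.3 to all 17475 genes and 11 libraries, as 4 group means with a variance trend, two-sided, with Benjamini-Hochberg adjustment over all genes in each of 5 comparisons. The members and gene lists were chosen with earlier results of these data known. Named by rule were members called in any comparison, the highest member of each complex, the largest rise and fall per complex and comparison among members with a mean of 1 or more, isoform sets, Ndufa4, Atp5s and Atp5sl, and up to 4 called genes of each other list with the smallest adjusted p. Other names, such as members with an unadjusted p under 0.05, with a spread over 2 within a group or called when libraries were left out, were chosen after their values were seen. The TCA alternatives were added after the counts were seen. Labels tie TAMs and MTMs to a mouse, and deviations of the same mouse correlated at 0.0379 to 0.211 over genes. Alternatives were normalisation, pseudocount, filter, trend, groups fitted, block and leaving out libraries. Gene models came from GENCODE vM21, without one for Atp5o, and promoters from RefSeq. Python 3.11.15 and matplotlib 3.10.9 drew the figures.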

Additional observations from a re-analysis of the deposited data

How the results depend on the processing

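Under leave-one-out, the 2 members called between MYC and control TAMs became 0 to 6, and the 0 between TAMs and MTMs of MYC mice 0 to 1. The 1 was Cox7a2l without MYC TAM mouse 6, a fit that called 5.9% of all genes. Between MYC and control TAMs, 9.92% of all genes were called without control TAM mouse 3 and 17.1% without MYC TAM mouse 6. Using only the 2 groups compared gave 1 (Ndufa9), with 8.85% of all genes called. With MYC TAM mice 4 and 6 left out together, only mouse 2 stood for that group. Cox7a2l then differed by 1.02 between TAMs and MTMs of MYC mice. Why the counts moved was not tested. For MYC against control TAMs, quantile normalisation gave 3 members, adding Cox7a2l, while 15.2% of all genes were called. A pseudocount of 0.5 gave 3, adding Cox8b, with 16.5% of all genes called. Median centring gave 2 other members, with 28.8% of all genes called. A filter on a mean of 1 gave 2, with 28.3% of the genes kept called. Leaving out the variance trend also gave 2, with 17.1% of all genes called. Between MYC and control MTMs and between control TAMs and MTMs no alternative called a member. Of 8031 single differences under the alternatives, 7989 kept direction or stayed uncalled on the same side of the threshold, 25 passed it newly, 17 lost it and none of those called changed sign. Taking the mouse as a replicate block, random or fixed, moved no count of members called (2 with the random block between MYC and control TAMs), and no paired fit exists between genotypes alone. Genes with few estimated reads, such as Cox8b and Cox8c, have levels that rest on counts close to 0.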
